A study of Mus musculus with 4 samples.

Results

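The 7 genes described here, Spi1, Irf8, Irf5, Runx1, Sall1, Ikzf1 and Mitf, encode transcription factors of the myeloid lineage, and they are 7 of the 18386 features counted in this series. They were taken by name and matched by Ensembl identifier, and their RNA was measured in cortex of 12-month-old male APPswe/PS1ΔE9 mice (APP) and of age-matched male wild type mice (WT), all of C57BL/6 background by the labels and the WT mice C57BL/6J by the study's methods, with 2 mice and so 2 libraries in each group. The APP mice carry an APP transgene with the Swedish mutation and a human PS1 transgene that lacks exon 9. In this line the transgenes are driven by a prion protein promoter, so that they are expressed widely in the brain. The APP mice develop amyloid deposits. The libraries are named APP-3, APP-4, WT-1 and WT-2 after the headers of the count table. The 4 libraries held between 28525117 and 43881196 counts, and both APP libraries were shallower than both WT libraries, so depth and genotype cannot be told apart. The counts of the 2 libraries of a group differed by far more than counting error (chi-square per degree of freedom 28.8 in APP and 5.28 in WT, near 1 where only counting error separates libraries). That they came from separate mice is given by the study's methods and cannot be shown by this spread.

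Microglia are the resident macrophages of the brain, and their identity is set by a small number of transcription factors. PU.1, the product of Spi1, opens the enhancers of the myeloid lineage and works with partners such as IRF8 and RUNX1, while SALL1, which is induced by TGF-beta signalling in the brain, separates microglia from other macrophages. Amyloid deposits are known to be surrounded by microglia that have changed their gene expression. In cortex as a whole these cells are a minority, so RNAs of this kind are expected at low levels.

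All 7 genes had counts in every library, at least 30 in each. The deposited table holds only rows with at least 10 counts in 1 library or more, a limit that the 7 genes passed in both groups. Of the 7 genes, 0 passed both cut-offs of the study, a fold change of at least 1.5 and an adjusted p under 0.05 (the quasi-likelihood test of edgeR, adjusted by Benjamini-Hochberg over all features, used for every gene below unless another test is named), where 0.843% of all features were called higher in APP. At an unadjusted p under 0.05, 5 of the 7 were higher in APP, against 7.36% of all features. Both APP libraries lay above both WT libraries for 6 of the 7, against 21.3% of all features. The median log2 fold change of the 7 genes was 0.74, and that of all features was -0.00105. The exception to the non-overlap was Mitf, whose log2 fold change was 0.16, while the other 6 ranged from 0.48 for Spi1 to 0.93 for Runx1.

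The test decided how many of the 7 were called. DESeq2 called 1, Sall1, where it called 1.04% of all features higher in APP. edgeR's exact test called 3, Irf8, Runx1 and Sall1, where it called 1.77%, and its likelihood ratio test called the same genes and Ikzf1, where it called 1.91%. The APP libraries also mattered, since without APP-3 the quasi-likelihood test called 5 of the 7, Irf8, Irf5, Runx1, Sall1 and Ikzf1, and without APP-4 it called 1, Irf8. In those fits a lone APP library was assumed to vary like the WT libraries, and the features called over the whole table went from 162 to 601 and 478. For 1 gene in 2 and 2 mice, the smallest p of an exact two-sided permutation test is 0.333, and the edgeR tests reach smaller values by sharing the spread over genes.

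**Figure D1:**
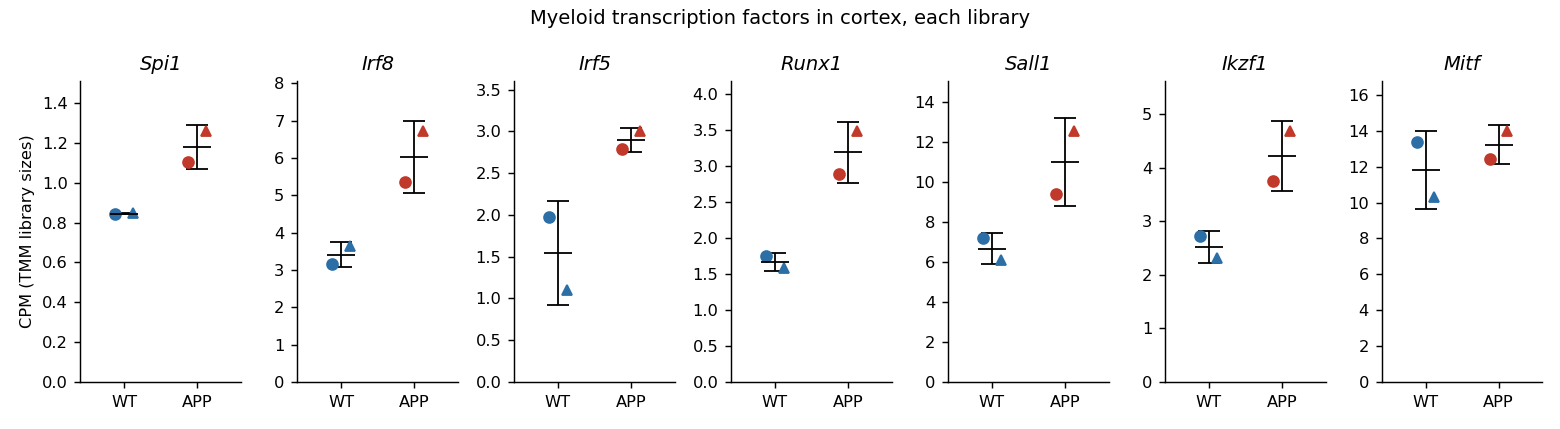
Scaled counts (CPM, by TMM library sizes) of the 7 genes in each library, with a linear axis from 0 for each gene. Circles are APP-3 and WT-1, triangles are APP-4 and WT-2, and the bars give the mean and SD of the 2 libraries. In 6 panels both APP points lie above both WT points, and in the panel of Mitf they overlap, with WT-1 at 13.4 CPM between APP-3 at 12.4 and APP-4 at 14.0.

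Spi1, on the plus strand of chromosome 2 of GRCm38 (chr2:91082390-91115756), encodes PU.1, a factor of the ETS family that is needed for the formation of macrophages and microglia. It was listed under its older symbol Sfpi1 and was the gene with the fewest counts of the 7, with 32 and 39 in the APP libraries and 37 and 30 in the WT libraries. Scaled to library size, these were 1.10 and 1.26 CPM in APP and 0.842 and 0.846 CPM in WT. The raw counts of the groups overlapped and the scaled values did not. Spi1 had 1.18 ± 0.110 CPM in the APP mice and 0.844 ± 0.00306 in the WT mice (SD, n = 2), a fold change of 1.40 with a 95% interval of 0.868 to 2.25 (edgeR adjusted p = 0.585). At this depth neither equal levels nor a fold change of 1.5 lay outside the interval.

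Irf8 and Irf5 encode interferon regulatory factors. IRF8 binds DNA together with PU.1 and is needed for normal microglia, and IRF5 acts downstream of Toll-like receptors on inflammatory cytokine genes. Irf8, on chromosome 8 (chr8:120736358-120756694, plus strand), had 155 and 208 counts in the APP libraries and 139 and 129 in the WT libraries. This corresponded to 5.34 and 6.72 CPM in APP and 3.16 and 3.64 CPM in WT. Both APP values lay above both WT values, with 6.03 ± 0.971 CPM in the APP mice and 3.40 ± 0.337 in the WT mice (SD, n = 2). The fold change was 1.78 (95% interval 1.34 to 2.36), a log2 value of 0.83 with a standard error of 0.18 and an edgeR adjusted p of 0.0775, the smallest of the 7.

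The sequence upstream of Irf8 is shown because its promoter is known to respond to interferon gamma through a GAS element, a short palindrome, and because Irf8 had the smallest adjusted p of the 7 genes. The RefSeq sequences used here hold 2 starts of Irf8, at 120736358 and 120738639. The 250 bases before the first of them (chr8:120736108-120736357 of GRCm38.p6, plus strand), where Irf8-201 also starts, held 2 matches to TTCNNNGAA, in capitals, at 171 to 163 and 153 to 145 bases before the start. Of the 32851 RefSeq mouse promoter windows of this length, 7.02% held at least 1 match. The window of the other start held 0 matches to any motif searched and is not shown.
Irf8: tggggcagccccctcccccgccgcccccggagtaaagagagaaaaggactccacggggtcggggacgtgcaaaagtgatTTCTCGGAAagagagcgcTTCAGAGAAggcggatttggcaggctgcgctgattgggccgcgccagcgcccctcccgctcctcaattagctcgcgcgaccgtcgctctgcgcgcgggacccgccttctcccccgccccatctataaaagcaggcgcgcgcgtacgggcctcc
The other motifs, searched on both strands, had 0 matches in this window. They were the ETS motif GAGGAAGT, the shorter ETS core GGAAGT that it contains, the interferon regulatory factor repeat GAAANNGAA, the RUNX motif TGTGGT, the E-box CATGTG of MITF and the E-box CACGTG of lysosomal genes. A match is a description of the letters and not of a bound site.

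Irf5, on chromosome 6 (chr6:29526625-29541871, plus strand), had 81 and 93 counts in APP and 87 and 39 in WT. These were 2.79 and 3.003 CPM in APP-3 and APP-4, and 1.98 and 1.10 CPM in WT-1 and WT-2. The WT libraries stood further apart than for any other of the 7 genes relative to their mean, and the groups still did not overlap. Its level was 2.90 ± 0.149 CPM in the APP mice and 1.54 ± 0.622 in the WT mice (SD, n = 2), a fold change of 1.86 with a wide 95% interval of 1.19 to 2.91 (edgeR adjusted p = 0.233). Leaving out WT-1 or WT-2 moved the log2 fold change of Irf5 to 1.39 or 0.55, without a call. Tnpo3 is annotated on the other strand over part of Irf5 and shares 0 exonic bases with its counted transcript.

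Runx1, on the minus strand of chromosome 16 (chr16:92601466-92826149), encodes a factor needed for the emergence of blood cells, including the yolk sac progenitors of microglia. It had 84 and 108 counts in APP and 77 and 56 in WT. The levels were 2.90 and 3.49 CPM in APP-3 and APP-4, and 1.75 and 1.58 CPM in WT-1 and WT-2. The groups did not overlap, and Runx1 had the largest fold change of the 7, 1.91 (95% interval 1.37 to 2.67). Its log2 fold change was 0.93 with a standard error of 0.21 (edgeR adjusted p = 0.0938). Gm26626, an antisense gene annotated over Runx1, shares 106 bases with the counted transcripts and has no row of its own. The protocol kept the strand of the reads, but whether the counting used it is not given in the sources used here.

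Sall1, on the minus strand of chromosome 8 (chr8:89027235-89044162), encodes a zinc finger repressor that among macrophages is a signature of microglia. It had 273 and 388 counts in APP and 316 and 216 in WT. Its 9.41 and 12.5 CPM in APP-3 and APP-4 lay above its 7.19 and 6.09 CPM in WT-1 and WT-2. The level of Sall1 was 11.0 ± 2.20 CPM in the APP mice and 6.64 ± 0.776 in the WT mice (SD, n = 2), with a fold change of 1.65 (95% interval 1.26 to 2.15, edgeR adjusted p = 0.105). APP-3 lay closer to WT-1 than to APP-4.

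Ikzf1, on chromosome 11 (chr11:11685003-11772926, plus strand), encodes Ikaros, a zinc finger protein of lymphoid and myeloid cells that recruits chromatin remodelling complexes. It had 109 and 145 counts in APP and 120 and 82 in WT. Its level was 3.76 and 4.68 CPM in APP-3 and APP-4, and 2.73 and 2.31 CPM in WT-1 and WT-2. The groups did not overlap, with 4.22 ± 0.654 CPM in the APP mice and 2.52 ± 0.295 in the WT mice (SD, n = 2). The fold change was 1.67 (95% interval 1.23 to 2.27, edgeR adjusted p = 0.155).

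Mitf, on chromosome 6 (chr6:97807052-98021349, plus strand), encodes a basic helix-loop-helix leucine zipper factor of the MiT/TFE family that acts in melanocytes, osteoclasts and macrophages, with lysosomal genes among its targets. Its RNA is not restricted to myeloid cells in the brain. It had the most counts of the 7 genes, with 361 and 433 in the APP libraries and 587 and 365 in the WT libraries. The scaled values were 12.4 and 14.0 CPM in APP and 13.4 and 10.3 CPM in WT, so the groups overlapped. The level of Mitf was 13.2 ± 1.09 CPM in the APP mice and 11.8 ± 2.16 in the WT mice (SD, n = 2), a fold change of 1.11. The 95% interval of 0.889 to 1.40 included 1 and lay below the cut-off of 1.5 (edgeR adjusted p = 0.743). Without WT-2 the log2 fold change of Mitf was -0.01, so its direction rested on that library.

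**Figure D2:**
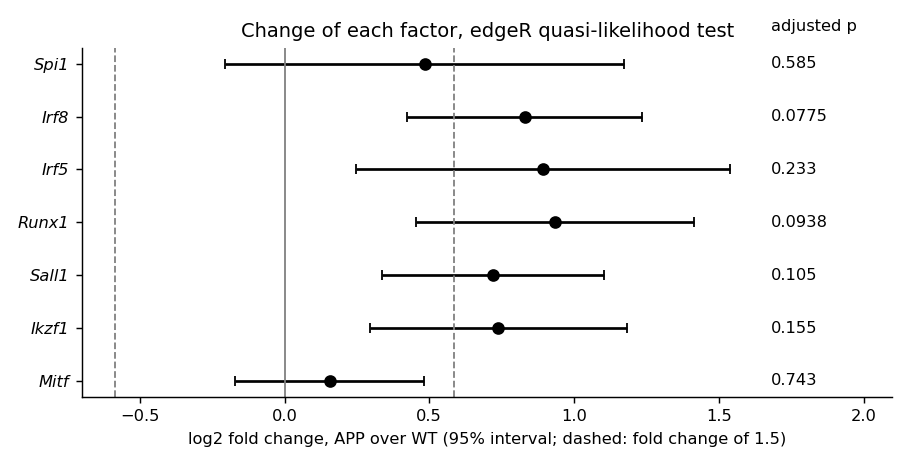
Log2 fold change of APP over WT for the 7 genes by edgeR's quasi-likelihood test, with 95% intervals and the adjusted p at the right. Dashed lines mark a fold change of 1.5. The intervals of Irf8, Irf5, Runx1, Sall1 and Ikzf1 lie above 0, those of Spi1 and Mitf include 0, and the smallest adjusted p is 0.0775.

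Levels of different genes were compared per kilobase of transcript, as CPM divided by the length of each counted transcript and summed over a gene's transcripts. Per kilobase, the order in WT was Mitf at 4.06, Sall1 at 1.26, Irf8 at 1.15, Ikzf1 at 0.908, Irf5 at 0.704, Spi1 at 0.544 and Runx1 at 0.347. In APP the order was the same, from 4.53 for Mitf through 2.08 for Sall1, 2.05 for Irf8, 1.37 for Ikzf1, 1.32 for Irf5 and 0.814 for Spi1 to 0.664 for Runx1. Mitf lay apart from the rest in all 4 libraries. Sall1 and Irf8 overlapped in both groups, as did Ikzf1 and Irf5. Spi1 lay within the range of Irf5 in WT and overlapped Runx1 in APP. The value of Spi1 was 0.935 in APP-3 and 0.693 in APP-4. It includes Spi1-202, a noncoding transcript of 613 bases with 10 and 2 counts there, which weighs heavily per kilobase. The place of Spi1 above Runx1 in APP rested on Spi1-202.

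The deposited rows are transcripts, and 17 of them belonged to the 7 genes. Of these, 3 passed both cut-offs, each higher in APP, when the same edgeR test was run on the 37539 transcripts, of which 0.749% were called higher in APP. One was Irf8-201, the protein coding transcript of Irf8 with 9 exons, which had 125 and 176 counts in APP and 110 and 102 in WT. Its log2 fold change was 0.90 with a standard error of 0.19 (edgeR adjusted p = 0.0296). The other counted transcript of Irf8, Irf8-207, which retains an intron, had 30 and 32 counts in APP and 29 and 27 in WT, or a log2 fold change of 0.55 (edgeR adjusted p = 0.671). Sall1-201 is the single counted transcript of Sall1 and had the counts of the gene. It passed in the fit of transcripts with an edgeR adjusted p of 0.0345 and the same log2 fold change of 0.72, while the gene did not pass in the fit of genes with 0.105. The call on Sall1 thus depended on the table in which its same 4 counts were tested.

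The remaining call was Runx1-202, which starts at the proximal of the 2 promoters from which Runx1 is known to be transcribed. It had 24 and 26 counts in the APP libraries and 10 and 7 in the WT libraries. Its log2 fold change was 1.95 with a standard error of 0.44 (edgeR adjusted p = 0.0481). Runx1-201, from the distal promoter, had 48 and 68 counts in APP and 47 and 42 in WT, or a log2 fold change of 0.78 (edgeR adjusted p = 0.261). Runx1-202 made up 28.6% and 24.1% of the counts of the gene in APP and 12.99% and 12.5% in WT. In edgeR's test of unequal change between transcripts of one gene, which was added after the data had been seen, Runx1-202 had an unadjusted p of 0.0533 and an adjusted p of 1.0, so a difference between the promoters was not shown. The transcripts overlap, with 66.4% of the bases of Runx1-202 also in Runx1-201, and how reads shared by transcripts were assigned is not given in the sources used here. Of the other transcripts of Runx1, Runx1-207 had 6 to 12 counts in each library. Runx1-206, which retains an intron, also starts at the proximal promoter, at 92697325, beside Runx1-202 at 92697328. It had 0 and 5 counts in APP and 11 and 1 in WT, or a log2 fold change of -0.80 with a standard error of 1.18. Of its bases, 47.9% are also in Runx1-202. The share of Runx1-202 alone thus does not give the use of the proximal promoter.

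The 250 bases before both RefSeq starts of Runx1 are shown so that the distal and proximal promoters can be compared. The distal window (chr16:92826075-92826324 of GRCm38.p6, minus strand) held 1 CACGTG, in capitals, at 71 to 66 bases before the RefSeq start at 92826074. Runx1-207 also starts there, whereas Runx1-201 starts further upstream, at 92826149, so the match lies after the start of Runx1-201. Of the promoter windows, 6.02% held that palindrome. The proximal window (chr16:92697330-92697579, minus strand) held 0 matches to the motifs searched, so it has no capitals.
Runx1 distal: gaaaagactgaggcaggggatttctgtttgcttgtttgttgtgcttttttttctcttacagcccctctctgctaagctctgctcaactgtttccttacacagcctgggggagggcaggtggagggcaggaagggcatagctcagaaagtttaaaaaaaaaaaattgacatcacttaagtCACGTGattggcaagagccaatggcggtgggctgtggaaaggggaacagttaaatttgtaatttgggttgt
Runx1 proximal: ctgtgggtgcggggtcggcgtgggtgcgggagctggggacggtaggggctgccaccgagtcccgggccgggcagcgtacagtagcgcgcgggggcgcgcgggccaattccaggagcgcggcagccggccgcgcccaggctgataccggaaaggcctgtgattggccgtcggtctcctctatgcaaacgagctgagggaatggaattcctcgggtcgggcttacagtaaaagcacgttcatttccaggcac
Among the windows of Sall1, the one before the start at 89042862 held 1 GGAAGT at 180 to 175 bases before the start, a motif held by 19.7% of the promoter windows.

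Mitf was counted on 3 transcripts. Mitf-202, which begins at the upstream promoter called A and covers 10 exons, had 203 and 269 counts in APP and 347 and 226 in WT. Mitf-201 begins at the M promoter, named for its use in melanocytes, and had 140 and 145 counts in APP and 208 and 113 in WT. Mitf-206, which retains an intron, had 18 and 19 counts in APP and 32 and 26 in WT. Their log2 fold changes were 0.14, 0.26 and -0.24, and 0 of them passed (edgeR adjusted p from 0.778 to 0.916). The share of Mitf-201 in the counts of the gene was 38.8% and 33.5% in APP and 35.4% and 31.0% in WT. Since 91.6% of the bases of Mitf-201 are also in Mitf-202, leaving 162 of its own, that share does not give the use of the M promoter.

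The RefSeq sequences hold 3 starts of Mitf, and the windows of those nearest the starts of Mitf-202 and Mitf-201 are shown because most counts were on these transcripts. The window of the other start, at 97929817, held 0 matches to the motifs searched. The window of the A start (chr6:97806808-97807057 of GRCm38.p6, plus strand) held 1 TGTGGT on the opposite strand, seen as ACCACA in capitals, at 81 to 76 bases before the start, and 14.0% of the promoter windows held it. The window of the M start (chr6:97991533-97991782, plus strand) held 0 matches.
Mitf A: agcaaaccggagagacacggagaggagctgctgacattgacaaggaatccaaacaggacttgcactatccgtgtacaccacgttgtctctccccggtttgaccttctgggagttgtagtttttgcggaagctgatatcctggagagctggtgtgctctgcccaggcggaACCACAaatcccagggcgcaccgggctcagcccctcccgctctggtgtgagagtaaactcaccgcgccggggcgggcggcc
Mitf M: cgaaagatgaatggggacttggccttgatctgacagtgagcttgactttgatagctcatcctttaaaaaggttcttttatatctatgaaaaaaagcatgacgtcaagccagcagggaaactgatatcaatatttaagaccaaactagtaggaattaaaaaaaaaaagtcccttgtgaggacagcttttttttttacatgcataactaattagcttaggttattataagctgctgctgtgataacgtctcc
The RefSeq sequences covered 13 starts of 6 of the 7 genes.

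Ikzf1 was counted on 4 transcripts, led by Ikzf1-203 with 70 and 95 counts in APP and 66 and 57 in WT (log2 fold change 0.82, edgeR adjusted p = 0.123). Ikzf1-201 had 24 and 28 counts in APP and 27 and 11 in WT, and all of its bases also lie in Ikzf1-203. Ikzf1-204 had 11 and 19 counts in APP and 17 and 8 in WT. Ikzf1-202, a short transcript, went the other way, with 4 and 3 counts in APP and 10 and 6 in WT, or a log2 fold change of -0.76 with a standard error of 0.80. Spi1 was counted on Spi1-201, with 22 and 37 counts in APP and 32 and 26 in WT, and on Spi1-202, which shares 0 bases with it and had 10 and 2 counts in APP and 5 and 4 in WT. Spi1-202 made up 31.3% of the counts of Spi1 in APP-3 and 5.13% in APP-4, so the level of the gene in APP-3 rested in part on a noncoding transcript. Spi1-202, Ikzf1-202, Runx1-206 and Runx1-207 are 4 rows that reached the table's minimum of 10 counts in 1 library alone. In the test of unequal change within a gene, 9 of 26648 transcripts passed an adjusted p of 0.05, and 0 of them belonged to the 7 genes.

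**Figure D3:**
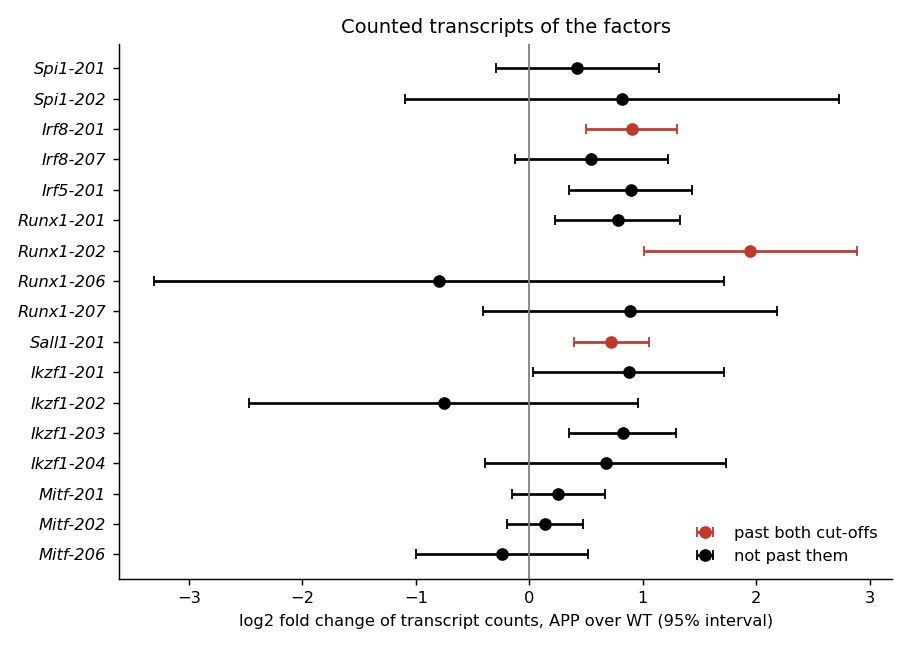
Log2 fold change of APP over WT for the 17 counted transcripts, with 95% intervals, by edgeR's quasi-likelihood test over all transcripts. Red marks the 3 transcripts past both cut-offs, Irf8-201, Runx1-202 and Sall1-201. Runx1-202 lies furthest to the right at 1.95, and Runx1-206 and Ikzf1-202, with few counts, lie left of 0 with wide intervals.

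The RNA of microglia as a whole was higher in APP. Of 17 microglial markers, 17 were counted and 10 passed both cut-offs, each higher in APP, against 0.843% of all features. Their median log2 fold change was 0.80, and 0 markers were at 0 counts in any library. Their summed level was 527 and 617 CPM in APP and 323 and 327 CPM in WT. In bulk tissue, more cells of a type and more RNA per cell cannot be told apart. Csf1r, the receptor that keeps microglia alive, is among these markers and also among the PU.1 targets and upstream receptors below. Itgam is likewise both among these markers and among the PU.1 and IRF8 targets.

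The 7 genes were therefore also set against the microglial markers, as counts of the gene per 1000 summed marker counts of the same library. Irf8 had 10.1 and 10.9 per 1000 in APP-3 and APP-4 and 9.79 and 11.1 in WT-1 and WT-2. The ratio of the pooled counts, APP over WT, was 1.02 for Irf8 (95% interval 0.865 to 1.19, from an exact binomial interval that covers counting error only, as for the other ratios). It was 1.04 for Irf5 (0.819 to 1.31) and 1.08 for Runx1 (0.864 to 1.36). It was 0.932 for Sall1 (0.830 to 1.05), 0.943 for Ikzf1 (0.781 to 1.14) and 0.795 for Spi1 (0.561 to 1.13). Each of these 6 intervals included 1. Mitf had 23.6 and 22.7 per 1000 in APP and 41.3 and 31.5 in WT, with a ratio of 0.626 (0.569 to 0.688). Its RNA is not restricted to myeloid cells, and its fold change per library size was 1.11. A ratio below 1 can thus come from the rise of the markers alone and does not give a level of Mitf in microglia. The groups did not overlap for Mitf, for Spi1, with 2.09 and 2.04 per 1000 in APP and 2.60 and 2.59 in WT, or for Runx1, with 5.49 and 5.66 in APP and 5.42 and 4.83 in WT. For 2 against 2 libraries, such non-overlap in either direction has p = 0.333 by an exact two-sided permutation test. Its share over all features was not computed for these ratios.

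The choice of markers moved these ratios. Per 1000 counts of Cx3cr1, P2ry12, P2ry13 and Tmem119, receptors and a surface protein of resting microglia, the ratio was 1.19 for Irf8 (1.02 to 1.40), 1.27 for Runx1 (1.01 to 1.598) and 1.22 for Irf5 (0.961 to 1.54). It was 1.09 for Sall1 (0.974 to 1.23), 1.11 for Ikzf1 (0.917 to 1.34) and 0.933 for Spi1 (0.659 to 1.32). For Sall1 and Ikzf1 the ratio thus changed sides of 1 between the marker sets. Mitf stayed below 1 with both, at 0.734 (0.667 to 0.808) here. With these 4 markers the groups did not overlap for Irf8 and Runx1, higher in APP, and for Spi1 and Mitf, lower in APP. The limits given above for non-overlap hold here too. These are descriptions of 4 libraries, and the intervals leave out the variation between mice.

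**Figure D4:**
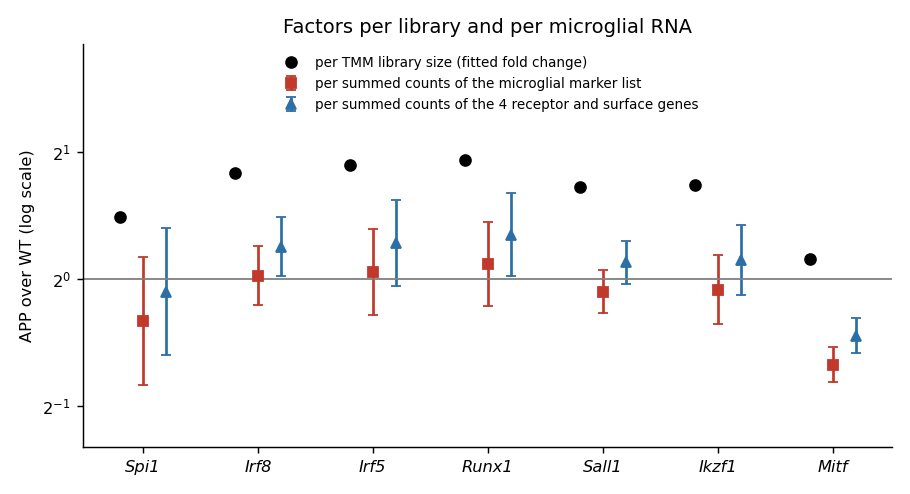
Ratio of APP over WT on a log axis for the 7 genes, per library size (black, the fitted fold change), per summed counts of the 17 microglial markers (red) and per summed counts of Cx3cr1, P2ry12, P2ry13 and Tmem119 (blue), with 95% intervals for counting error. The black points run from 1.11 to 1.91, the red points of all genes but Mitf have intervals that include 1, and Mitf lies at 0.626 and 0.734.

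Markers of other cells that express some of these factors were listed as well. For border macrophages and monocytes, 8 of 10 markers were counted, 0 passed, and their summed level was 14.5 and 13.5 CPM in APP and 14.2 and 13.8 CPM in WT. For neutrophils, 3 of 6 were counted, with 0 past the cut-offs and a sum of 0.276 and 1.26 CPM in APP and 0.410 and 0.254 CPM in WT. For T and B cells, which express Ikzf1 and Runx1, 5 of 9 were counted and 0 passed, with 4.72 and 8.39 CPM in APP and 5.96 and 6.55 CPM in WT. For these lists the sums in APP were not above WT in both libraries. Of 6 melanocyte markers, 3 were counted and 0 passed, with sums of 19.1 and 17.4 CPM in APP and 17.8 and 17.4 CPM in WT, nearly all of it Tyr. None of 5 mast cell markers had a row. Over these lists Pmel was the 1 marker with an unadjusted p under 0.05, and DESeq2 and edgeR's exact and likelihood ratio tests called 0.

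The markers of other cortical cells were summed in the same way. For astrocytes, 8 of 8 were counted and 2 passed, Gfap with a log2 fold change of 2.82 and Aqp4 with 0.72, and the list's sum ranged from 4716 to 5094 CPM in APP and from 3858 to 4232 in WT. For oligodendrocytes, 8 of 8 were counted, 1 passed, and the sum ranged from 1687 to 1940 CPM in APP and from 1256 to 1391 in WT. All 8 were higher in APP at an unadjusted p under 0.05, against 7.36% of all features. Both APP libraries lay above both WT libraries for all 8, against 21.3% of all features, and the median log2 fold change was 0.48. For cortical neurons and endothelium, 0 of 8 passed in either list by any test. At an unadjusted p under 0.05, 3 and 1 were lower (4.78% of all features were). The sums were 4467 and 3567 CPM against 4129 and 4066 CPM for neurons, APP first. Syt1 weighed on the neuronal sum of APP-3, with 1304 CPM there, 662 in APP-4 and 766 and 743 in WT. Of the 8 neuronal markers, 1 had a log2 fold change above 0, and the median was -0.11. For endothelium the sums were 81.8 and 78.7 CPM against 89.1 and 89.2 CPM, APP first. The part of astrocytes and oligodendrocytes in the results on the 7 genes was not tested.

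The families to which the factors belong were described next. Of 17 other ETS factors, 15 were counted, 0 passed and their median log2 fold change was 0.03. Etv5, a target and mediator of receptor tyrosine kinase signalling, had 2002 and 1915 counts in APP and 3619 and 2978 in WT, or a log2 fold change of -0.35 (edgeR adjusted p = 0.0760). Elf4, which acts in immune cells, had 33 and 37 counts in APP and 21 and 11 in WT, or a log2 fold change of 1.54 (edgeR adjusted p = 0.131), and was called by edgeR's exact and likelihood ratio tests. Both had groups that did not overlap, in opposite directions. At an unadjusted p under 0.05, 2 of the 15 were higher and 1 was lower, and DESeq2 called 0.

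Of 7 other interferon regulatory factors, 7 were counted and 0 passed, with a median of 0.34. Irf9, the DNA-binding subunit of the complex that answers type I interferon, had 234 and 270 counts in APP and 240 and 218 in WT, or a log2 fold change of 0.53 (edgeR adjusted p = 0.151). Irf7, which amplifies type I interferon, had 13 and 26 counts in APP and 7 and 11 in WT, or a log2 fold change of 1.48 with a standard error of 0.57 (edgeR adjusted p = 0.334). The scaled values of both genes were higher in each APP library than in each WT library, and they were the 2 of the list with an unadjusted p under 0.05. DESeq2 and edgeR's exact and likelihood ratio tests called 0 of the 7.

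The relatives and partners of RUNX1 gave 6 of 6 counted, 0 past the cut-offs and a median of 0.00440. Cbfb, the subunit that RUNX proteins need to bind DNA firmly, had 35.7 and 31.3 CPM in APP and 29.9 and 30.4 in WT, or a log2 fold change of 0.15 (edgeR adjusted p = 0.538). Runx1t1, a corepressor, had a log2 fold change of 0.14 (edgeR adjusted p = 0.629) with overlapping groups. In the SALL family, 2 of 3 were counted and 0 passed, with log2 fold changes of 0.60 for Sall3 (edgeR adjusted p = 0.376) and 0.07 for Sall2. In the Ikaros family, 3 of 4 were counted and 0 passed, with 0.26 for Ikzf2 (edgeR adjusted p = 0.475) and 0.02 for Ikzf5. In the MiT/TFE family, 2 of 3 were counted and 0 passed, with -0.47 for Tfeb (edgeR adjusted p = 0.495), a regulator of lysosome genes, and -0.05 for Tfe3. Over the RUNX, SALL, Ikaros and MiT/TFE lists, Sall3 was the 1 gene with an unadjusted p under 0.05, and the other tests called 0.

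Of 35 other factors with roles in myeloid cells, 34 were counted, with a median of 0.08. Of these, 1 passed both cut-offs, where 0.843% of all features were called higher in APP. This was Cebpa, a partner of PU.1 in myeloid differentiation, which had 231 and 241 counts in APP and 203 and 163 in WT. Cebpa had 7.87 ± 0.128 CPM in the APP mice and 4.61 ± 0.0150 in the WT mice (SD, n = 2) and rose 1.71-fold (edgeR adjusted p = 0.0382). Stat3, which carries cytokine signals in astrocytes and microglia, had 47.8 and 42.6 CPM in APP and 30.7 and 30.3 in WT, and its fold change of 1.48 fell short of the cut-off at an adjusted p of 0.0156 (edgeR).

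Receptors and ligands that act upstream of these factors were all counted, 10 of 10, with a median of 0.44. Of these, 2 passed, each higher in APP, against 0.843% of all features. Tgfbr2, a receptor of TGF-beta, which maintains Sall1 in microglia, had 353 and 373 counts in APP and 273 and 240 in WT. It rose 1.87-fold, from 6.49 ± 0.395 to 12.1 ± 0.0880 CPM (SD, n = 2, edgeR adjusted p = 0.0142). Csf1r had 65.5 and 81.1 CPM in APP and 46.9 and 43.7 in WT and rose 1.62-fold (edgeR adjusted p = 0.0174). Tgfbr1, the partner of Tgfbr2, had 67.1 and 81.1 CPM in APP and 50.9 and 52.2 in WT, a fold change of 1.44 that fell short of the cut-off (edgeR adjusted p = 0.0377).

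Of 14 known targets of PU.1 and IRF8, 13 were counted, with a median log2 fold change of 0.95. Of the 13, 7 rose past both cut-offs, where 0.843% of all features were called higher in APP. DESeq2 and edgeR's exact and likelihood ratio tests called 8, 9 and 9, against 1.04%, 1.77% and 1.91% of all features. The 2 APP libraries lay above the 2 WT libraries for all 13, against 21.3% of all features. Lyz2, a lysozyme of macrophages, had 591 and 689 counts in APP and 244 and 150 in WT, and rose 4.33-fold (edgeR adjusted p = 0.000283). Cd68, a lysosomal membrane protein, had 168 and 221 counts in APP and 73 and 58 in WT, and rose 3.92-fold (edgeR adjusted p = 0.00218). Ptprc, which encodes the leukocyte antigen CD45, rose 2.58-fold. Ctss, a cathepsin, rose 2.16-fold and Fcgr3, an Fc receptor, 1.93-fold (edgeR adjusted p from 0.00581 to 0.0139 for the last 3). Most of these genes are also expressed mainly by microglia in the brain, and the part of the factors in their change was not tested.

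Known targets of MITF gave 0 calls. Of 10, 6 were counted, with a median of 0.39. Pmel, a melanosome protein, had 11 and 6 counts in APP and 4 and 2 in WT, or a log2 fold change of 1.87 with a standard error of 0.80 (edgeR adjusted p = 0.393). Gpnmb, a glycoprotein of lysosomes and melanosomes, had 45 counts in APP-3 but 15 in APP-4, against 15 and 20 in WT, so its groups overlapped (edgeR adjusted p = 0.470). Tyr had 523 and 526 counts in APP and 762 and 606 in WT, with a log2 fold change of 0.02. Pmel was the 1 target with an unadjusted p under 0.05, and the other tests called 0.

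**Figure D5:**
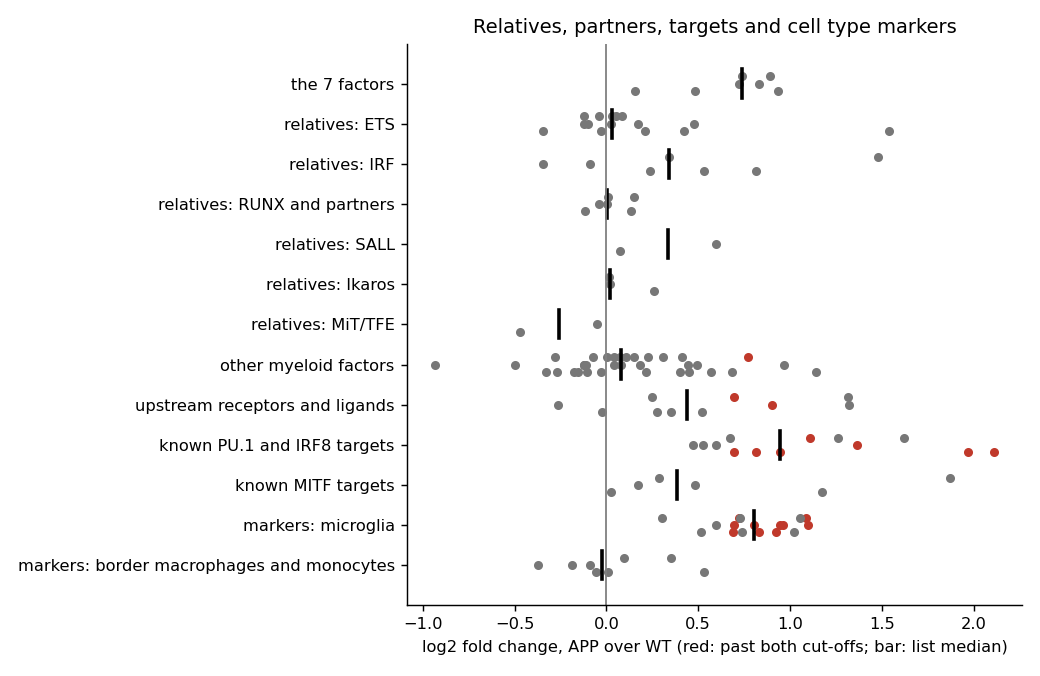
Log2 fold change of APP over WT for the genes of each list, 1 point per gene, with a bar at the list's median and red for genes past both cut-offs. The 7 factors have a median of 0.74. Medians of relatives are 0.03 (ETS, single genes from -0.35 to 1.54), 0.34 (interferon regulatory factors), 0.00440 (RUNX), 0.34 (SALL), 0.02 (Ikaros) and -0.26 (MiT/TFE). Red points stand among the PU.1 and IRF8 targets (median 0.95), microglial markers (0.80), upstream receptors and ligands (0.44) and other myeloid factors (0.08).

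For each factor the gene with the most similar pattern was found by the Euclidean distance of log2 CPM, centred on each gene's mean, over the 4 libraries and among 14660 features. The nearest gene to both Ikzf1 and Sall1 was Nckap1l, which encodes a blood cell subunit of the actin-regulating WAVE complex, at distances of 0.0191 and 0.0851, with 493 and 648 counts in APP and 535 and 370 in WT. The nearest to Irf8 was Adgre1, the macrophage antigen F4/80, at 0.0727, and the nearest to Runx1 was Man2b1, a lysosomal mannosidase, at 0.0584. The nearest to Spi1, Irf5 and Mitf were Psme2b, Ttc41 and Hmcn1 at 0.0265, 0.114 and 0.0142. With 4 libraries many genes have similar patterns, and these are descriptions.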

How the data were processed

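RNA of cortex from 2 APP and 2 WT mice was depleted of ribosomal RNA by the authors and sequenced as strand-specific paired reads of 100 bases. According to the study's methods, reads over 35 nucleotides were kept, pairs mapping to ribosomal RNA were removed, and the rest were aligned with FANSe2 to Ensembl mouse transcripts with up to 7 mismatches. The authors deposited the read counts of each transcript without normalization, and every row has at least 10 counts in 1 library or more. The Ensembl release is not given in the sources used here. The submitters' processing notes name CASAVA 1.8, edgeR and the human build hg19, although the transcript identifiers are of mouse. A further 4 columns of values per library and the authors' fold changes, p-values and FDR were not used. Numbers in the headers tied the WT columns to their samples, whereas those of the APP columns match no sample's number and give the group only.

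The 37539 transcripts were matched by identifier to GENCODE M21 (GRCm38), which held 36858, and summed per gene to 18386 features, with the 681 unmatched rows kept as they were. The symbols in the table differ in case and age, and an exact match would have found only Runx1 (2 of its 4 rows). The main test was edgeR's quasi-likelihood test (edgeR 4.0.16, limma 3.58.1, R 4.3.3) with TMM and no covariate, over all features with Benjamini-Hochberg adjustment. The script was tested on simulated data. DESeq2 1.42.0, edgeR's exact and likelihood ratio tests and other scalings were alternatives. So were a filter of 10 counts in every library, sums by the table's symbols and leaving out each library. A setting for edgeR's earlier quasi-likelihood method was also run and gave the values of the main fit. The test within a gene (diffSpliceDGE) was added after the data had been seen. Promoters are those of RefSeq (GRCm38.p6), searched in Python 3.11.15 with pandas 2.3.3, numpy 2.4.6 and matplotlib 3.10.9 for figures. Errors are SDs over 2 libraries. The binomial intervals of the ratios to markers cover counting error only. The protocol names no molecular identifiers, so the counts are of reads that need not be separate molecules, and these intervals can be too narrow.

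The 7 genes and the gene lists were chosen with earlier results of these data known. Named are the 7 genes and their counted transcripts, in each list the genes with an adjusted p under 0.05 (up to 6 of smallest p) or otherwise the 2 of smallest p, and the gene of nearest pattern to each factor among features with a mean of at least 1 CPM. Tyr, Gfap, Aqp4 and Syt1 were named after their values were seen. Itgam was named because it is in more than 1 list, and Tnpo3 and Gm26626 because they overlap a factor. A gene outside the rule is not reported here.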

Additional observations from a re-analysis of the deposited data

How the results depend on the processing

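With edgeR's quasi-likelihood test 162 features and 0 of the 7 factors passed both cut-offs. Its exact test gave 354 features and 3 factors, and its likelihood ratio test 391 features and 4. DESeq2 gave 1 factor. Past the cut-offs in these alternatives were, by log2 fold change, Irf8 at 0.83 (adjusted p = 0.00684 by the exact test and 0.00544 by the likelihood ratio test), Runx1 at 0.93 (0.0111 and 0.00954), Sall1 at 0.72 (0.0113 and 0.00980, and 0.0335 by DESeq2) and Ikzf1 at 0.74 (0.0455 by the likelihood ratio test). Library totals without TMM, DESeq2 size factors and TMM over protein-coding genes kept the direction and the lack of a call of all 7. So did the filter of 10 counts and sums by the table's symbols. The setting for edgeR's earlier quasi-likelihood method gave the same values as the main fit, so it was not a separate check. Leaving out each library in turn gave 134 to 601 features and 0 to 5 factors. The log2 fold changes then ranged from 0.39 to 0.58 for Spi1, 0.66 to 0.99 for Irf8, 0.55 to 1.39 for Irf5, 0.79 to 1.06 for Runx1, 0.50 to 0.91 for Sall1, 0.57 to 0.89 for Ikzf1 and -0.0117 to 0.36 for Mitf, which was below 0 without WT-2 alone. The cause was not tested. No paired analysis was possible because the APP columns carry numbers that match no sample's number, so no replicate block was fitted. The counts of Spi1, 30 to 39 in a library, limit what could be detected for it.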
